A study of Mus musculus with 4 samples.

Results

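The D-type cyclins, the kinases they activate and the inhibitors of those kinases were read on 4 microarrays, 1 for each of 4 sorted cell populations of mouse bone marrow. The set holds 10 genes of the 12393 that could be named on the array: the cyclin genes Ccnd1, Ccnd2 and Ccnd3, the kinase genes Cdk4 and Cdk6, and the inhibitor genes Cdkn1a, Cdkn1b, Cdkn2b, Cdkn2c and Cdkn2d. The members were taken by symbol from the platform annotation, which gives them 22 of the 22690 probe sets, and all 10 were above the detection floor on at least 1 array. Every population carried at least 1 allele in which green fluorescent protein (GFP) replaces Gfi1, which encodes a repressor of transcription in blood cells, so no wild-type cells were compared.

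The first population was CD11b+, Gr1-low cells of a Gfi1 knock-out animal (genotype GFP:Gfi1 KI/KI), called here Gfi1-deficient monocytes. Its label gives no GFP gate. The second was CD11b+, Gr1-high granulocytes, the third CD11b+, Gr1-low, GFP-high cells and the fourth CD11b+, Gr1-low, GFP-low monocytes, these 3 from heterozygous mice (GFP:Gfi1 KI/WT). All animals were untreated, 8 weeks old, of a C57BL/6 background after at least 10 backcrosses, and housed free of specific pathogens. The labels do not give the number of mice behind an array.

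Cyclin D proteins join Cdk4 or Cdk6 in the G1 phase of the cell cycle, and the complex phosphorylates the retinoblastoma protein, which frees E2F factors to switch on genes of DNA replication. Inhibitors of the INK4 family (Cdkn2b, Cdkn2c and Cdkn2d, which encode p15, p18 and p19) bind Cdk4 and Cdk6 directly, whereas those of the Cip/Kip family (Cdkn1a and Cdkn1b, which encode p21 and p27) act mainly on Cdk2 complexes and also bind cyclin D complexes. In bone marrow, myeloid progenitors divide and granulocytes stop dividing as they mature. Cdkn1a and Cdkn2b have been described in earlier work as genes that Gfi1 represses through the zinc finger protein Miz1 (gene Zbtb17).

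Values are log2 signals as deposited, and a value under 5.18, the 40th percentile of all values, was treated as below the floor. A gene with several probe sets was represented by the one with the highest mean over the 4 arrays. With 1 array per population there is no replicate and no test, so genes were counted by size, a log2 difference of at least 1 (2-fold). The error estimate is the SD of a log2 difference between probe sets of the same gene, over 2584 genes, and it does not cover the spread between animals. This SD came to 0.16 for Gfi1-deficient minus GFP-low monocytes, 0.26 for Gfi1-deficient monocytes minus GFP-high cells, 0.34 for granulocytes minus GFP-low monocytes, 0.32 for granulocytes minus GFP-high cells and 0.27 for GFP-high cells minus GFP-low monocytes. These comparisons share arrays and are not independent of each other. In sorted populations, fewer cells of a kind and less RNA of a gene per cell cannot be told apart.

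The 4 arrays were alike in scale, with medians between 5.91 and 6.01 and between 59.2% and 61.0% of probe sets above the floor. Actb probe sets at the 3' end exceeded those at the 5' end, a measure of RNA integrity, by 0.08 to 0.28. Transcripts of the sex chromosomes set 1 array apart. Xist had 5.80 in Gfi1-deficient monocytes against 9.56 to 10.93 on the other arrays, and Eif2s3y, a Y-linked gene, had 8.31 in Gfi1-deficient monocytes and lay under the floor elsewhere. By these transcripts the Gfi1-deficient array read as male and the others as female, so sex and Gfi1 deficiency cannot be told apart. Gfi1 itself read 5.18 in Gfi1-deficient monocytes (just under the floor), 7.31 in granulocytes, 10.31 in GFP-high cells and 3.74 in GFP-low monocytes (below the floor). Where its probe set lies relative to the replaced sequence was not examined, so the value does not check the knock-out label. The 5 monocyte markers examined (Csf1r, Irf8, Ccr2, Cd48 and Ly86) had median levels of 11.81 in Gfi1-deficient monocytes, 8.06 in granulocytes, 7.25 in GFP-high cells and 12.08 in GFP-low monocytes. The 5 primary granule markers (Mpo, Elane, Prtn3, Ctsg and Ms4a3) had medians of 11.42, 8.25, 13.32 and 8.08 in that order of arrays. The GFP-high cells therefore went against their label of monocyte in these markers and are named here by their sort, as GFP-high Gr1-low cells. Their array also held the highest level of 3 eosinophil genes (Epx, Prg2 and Prg3), with a log2 summed signal of 12.65 against 10.90 in Gfi1-deficient monocytes, 7.85 in granulocytes and 8.03 in GFP-low monocytes. The 4 secondary granule markers (Ltf, Camp, Ngp and Lcn2) had medians of 8.58 in Gfi1-deficient monocytes, 14.03 in granulocytes, 14.12 in GFP-high cells and 12.36 in GFP-low monocytes. The GFP-low array thus held strong secondary granule signal beside its monocyte markers. Of the lymphoid and platelet markers, Pax5, Cd3g and Gp1bb were below the floor on all 4 arrays, and the others were above it on all 4. The B cell genes Cd79a and Cd79b lay between 5.36 and 7.59, the T cell gene Cd3e between 6.18 and 6.81, and the platelet gene Pf4 between 5.88 and 6.77. Nkg7, a gene of cytotoxic lymphocytes, read 7.32 in Gfi1-deficient monocytes, 6.42 in granulocytes, 11.35 in GFP-high cells and 5.75 in GFP-low monocytes. The plasma cell gene Igha was highest in GFP-low monocytes, at 10.61, against 7.33 in Gfi1-deficient monocytes, 8.42 in granulocytes and 7.66 in GFP-high cells. Of the other plasma cell markers, Jchain was also highest in GFP-low monocytes, at 8.18, and Xbp1 in Gfi1-deficient monocytes, at 11.76.

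The promoters of 3 members are shown because the largest differences below concern Cdkn1a and Cdk4, and because Cdkn2b shares with Cdkn1a the earlier description as a Gfi1 target. Each is the 250 bases before an annotated transcript start, from RefSeq on build GRCm38.p6, written 5' to 3' on the gene's strand. Of the 10 members, 8 had a promoter in the table used. Cdkn1a had a distal and a proximal start. The distal promoter is chr17:29090729-29090978 and the proximal chr17:29093519-29093768 (both plus strand), Cdkn2b lies at chr4:89311033-89311282 (minus strand) and Cdk4 at chr10:127063285-127063534 (plus strand). Capitals mark CACGTG, the E-box bound by MYC and its partners, in Cdk4 and paired CATG cores of the kind found in p53 response elements in Cdkn1a.
Cdkn1a distal: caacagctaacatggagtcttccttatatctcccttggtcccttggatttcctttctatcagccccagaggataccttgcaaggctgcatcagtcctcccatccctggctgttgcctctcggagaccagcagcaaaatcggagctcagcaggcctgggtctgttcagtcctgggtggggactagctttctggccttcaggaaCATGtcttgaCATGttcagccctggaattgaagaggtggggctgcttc
Cdkn1a proximal: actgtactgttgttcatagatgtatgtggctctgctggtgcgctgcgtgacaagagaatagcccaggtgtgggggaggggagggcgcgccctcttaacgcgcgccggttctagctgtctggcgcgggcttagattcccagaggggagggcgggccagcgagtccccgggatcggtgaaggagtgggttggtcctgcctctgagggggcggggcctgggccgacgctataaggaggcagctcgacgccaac
Cdkn2b: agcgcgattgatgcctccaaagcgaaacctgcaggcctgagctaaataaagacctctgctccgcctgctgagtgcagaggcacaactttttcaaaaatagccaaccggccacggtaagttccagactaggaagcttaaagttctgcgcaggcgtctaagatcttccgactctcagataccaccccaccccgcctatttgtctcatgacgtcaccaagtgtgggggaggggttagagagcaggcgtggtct
Cdk4: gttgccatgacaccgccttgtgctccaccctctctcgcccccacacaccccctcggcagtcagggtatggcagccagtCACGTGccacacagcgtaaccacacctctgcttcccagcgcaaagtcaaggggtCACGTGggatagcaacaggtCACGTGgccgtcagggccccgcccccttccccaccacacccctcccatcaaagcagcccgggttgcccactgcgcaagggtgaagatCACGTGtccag

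The Cdk4 promoter held 4 E-boxes, which began 172, 118, 98 and 11 bases before the start, and Cdk6 held 1 at 220 bases. Among all 32851 promoters of the table, 6.02% held a CACGTG in the same window. Counted by gene, 2 of the 8 members held it, against 6.86% of all genes with a promoter. The paired core CATGNNNNNNCATG (which reads the same on either strand) began 48 bases before the distal start of Cdkn1a and was found in 0.490% of promoters. It was searched for after the expression values had been seen. AAATCA, a 6-base form of the Gfi1 recognition sequence, and its longer form AAATCAC, which contains it, were searched on both strands. They were in 0 of the 8 members' windows, against 14.2% and 3.13% of all genes with a promoter. Shorter forms of the Gfi1 sequence were not searched for. The E2F sequences TTTCCCGC and TTTGGCGC were likewise in 0 of 8, against 1.03% and 0.485% of all genes with a promoter. A match or its absence in this window only describes these letters.

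Ccnd2 encodes cyclin D2 and was the D cyclin gene that differed most between arrays. It read 5.55 in Gfi1-deficient monocytes, 6.96 in granulocytes, 7.08 in GFP-high cells and 5.22 in GFP-low monocytes. The arrays fell into a higher pair, granulocytes and GFP-high cells, which differed by 0.11 and so by less than the scatter between probe sets, and a lower pair, the monocyte arrays, which read just above the floor. Ccnd2 was 3.64-fold higher in GFP-high cells than in GFP-low monocytes (log2 difference 1.86), and 2.89-fold lower in Gfi1-deficient monocytes than in GFP-high cells (log2 difference -1.53). It was 3.36-fold higher in granulocytes than in GFP-low monocytes (1.75). In Gfi1-deficient minus GFP-low monocytes the difference was 0.33. Of its 7 probe sets, 4 exceeded the floor somewhere. Without the floor, all 4 read higher in GFP-high cells than in GFP-low monocytes, by 0.85 to 1.86. They also read higher in granulocytes than in GFP-low monocytes, by 1.30 to 1.75. Besides the representative, these probe sets were above the floor in granulocytes and GFP-high cells only. Their direction was thus set by the floor and adds no separate support. The remaining 3 of the 7 were below the floor throughout. With all 7 averaged, the Ccnd2 difference of GFP-high cells minus GFP-low monocytes was at least 0.08. With the floor at the 60th percentile it was at least 0.27. Both are bounds, since GFP-low monocytes then lay under the floor. The other 2-fold differences of Ccnd2 also fell short of the rule under both settings.

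Ccnd3, which encodes cyclin D3, had the same higher and lower pair of arrays over a narrower range. It read 11.25 in Gfi1-deficient monocytes, 12.12 in granulocytes, 11.91 in GFP-high cells and 11.19 in GFP-low monocytes. Granulocytes and GFP-high cells were again the higher pair, 0.21 apart, and the monocyte arrays the lower pair, 0.06 apart. The difference of 0.93 between granulocytes and GFP-low monocytes (1.91-fold) and that of 0.72 between GFP-high cells and GFP-low monocytes (1.64-fold) were larger than the probe set scatter and under the 2-fold rule. The first of them passed 2-fold, at 1.02 and 1.04, once the arrays were quantile normalized or shifted to 1 median. It has 1 probe set, and its values lie in the upper part of a scale that ended at 14.50, where differences can be compressed.

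Ccnd1, which encodes cyclin D1, was close to the floor and did not separate the arrays. It read 5.57 in Gfi1-deficient monocytes, 5.82 in granulocytes, 5.71 in GFP-high cells and 5.61 in GFP-low monocytes, and every step in that order was within the probe set scatter. Its 3 probe sets did not give the same order. One of them read 5.04 in Gfi1-deficient monocytes (below the floor), 5.90 in granulocytes, 5.38 in GFP-high cells and 6.00 in GFP-low monocytes. Without the floor, its difference of Gfi1-deficient minus GFP-low monocytes was -0.97, where the representative gave -0.04.

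**Figure D1:**
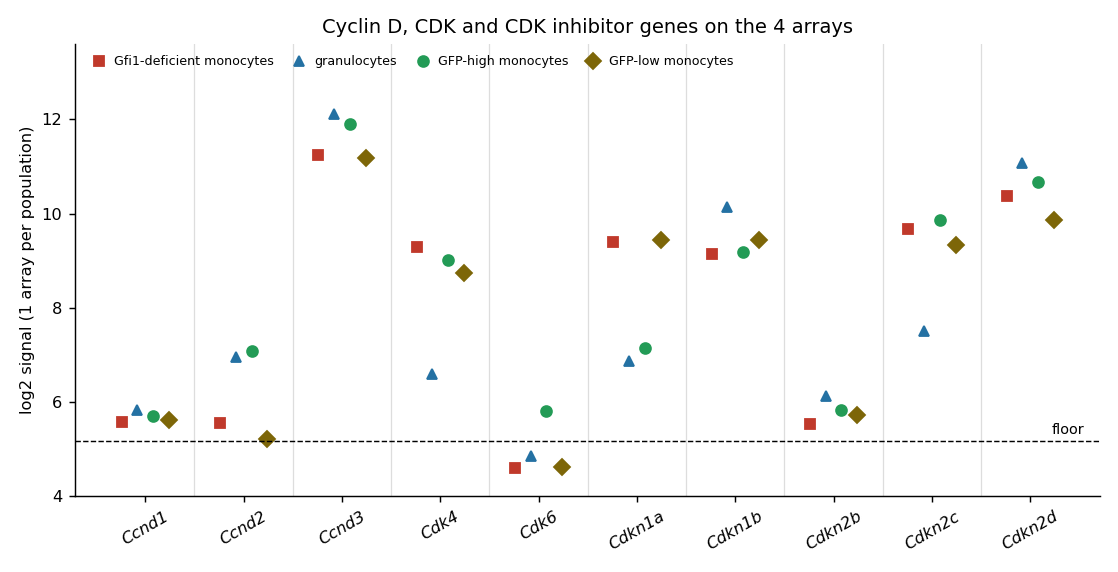
Log2 signal of the 10 members (vertical axis) on the 4 arrays, with 1 point for each array and the floor of 5.18 as a dashed line. Cdk4 and Cdkn2c are low on the granulocyte array alone, Cdkn1a is high on both monocyte arrays, and Ccnd2 is high in granulocytes and GFP-high cells.

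Cdk4, the cyclin D kinase gene, was low in granulocytes alone. It read 9.30 in Gfi1-deficient monocytes, 6.59 in granulocytes, 9.02 in GFP-high cells and 8.73 in GFP-low monocytes. The 3 Gr1-low arrays lay within 0.57 of each other, and granulocytes were 4.42-fold below GFP-low monocytes (log2 difference -2.14) and 5.39-fold below GFP-high cells (-2.43). In the second of these comparisons 2.41% of all genes had a lower difference. All 3 Cdk4 probe sets agreed in direction. Without the floor, their differences were -3.62 to -2.43 for granulocytes minus GFP-high cells and -2.99 to -2.14 for granulocytes minus GFP-low monocytes. The values of -3.62 and -2.99 came from a probe set below the floor in granulocytes, at 4.47. Gfi1-deficient monocytes read 0.57 above GFP-low monocytes (1.48-fold), with 0.51 to 0.73 over the probe sets, and 96.9% of all genes had a lower difference in that comparison.

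Cdk6, whose product shares the role of Cdk4, was above the floor in GFP-high cells only. It read 4.59 in Gfi1-deficient monocytes, 4.85 in granulocytes, 5.80 in GFP-high cells and 4.62 in GFP-low monocytes. Set against the floor, it was at least 1.54-fold higher in GFP-high cells than in GFP-low monocytes. Without a floor the log2 difference was 1.18, and the 3 arrays below the floor have no order among them. It has 1 probe set.

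Cdkn1a encodes p21, an inhibitor induced by p53 and by differentiation signals, and had the largest fold difference of the 10 genes in the 5 comparisons made. It read 9.40 in Gfi1-deficient monocytes, 6.88 in granulocytes, 7.14 in GFP-high cells and 9.44 in GFP-low monocytes. The monocyte arrays were high and 0.04 apart, and granulocytes and GFP-high cells were low and 0.26 apart, each gap being within the probe set scatter. Cdkn1a was 5.92-fold lower in granulocytes than in GFP-low monocytes (log2 difference -2.57), 4.95-fold lower in GFP-high cells than in GFP-low monocytes (-2.31), and 4.80-fold higher in Gfi1-deficient monocytes than in GFP-high cells (2.26). Its second probe set gave the same higher and lower pairs at smaller size. It read 7.38 in Gfi1-deficient monocytes, 6.03 in granulocytes, 6.33 in GFP-high cells and 7.36 in GFP-low monocytes, with a difference of -1.03 for GFP-high cells minus GFP-low monocytes. Between the arrays that differ in Gfi1 genotype within the monocyte pair, Gfi1-deficient and GFP-low, neither probe set differed by more than 0.04.

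Cdkn1b, which encodes p27, was highest in granulocytes. It read 9.15 in Gfi1-deficient monocytes, 10.15 in granulocytes, 9.19 in GFP-high cells and 9.43 in GFP-low monocytes. The granulocyte array lay above the other 3, which spanned 0.28. The difference of granulocytes minus GFP-high cells was 0.95 (1.94-fold), just under the 2-fold rule (1.01 with the arrays shifted to 1 median) and above 90.5% of all genes, and that of granulocytes minus GFP-low monocytes was 0.71. A second probe set, above the floor in granulocytes only, also read highest there, at 5.30.

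**Figure D2:**
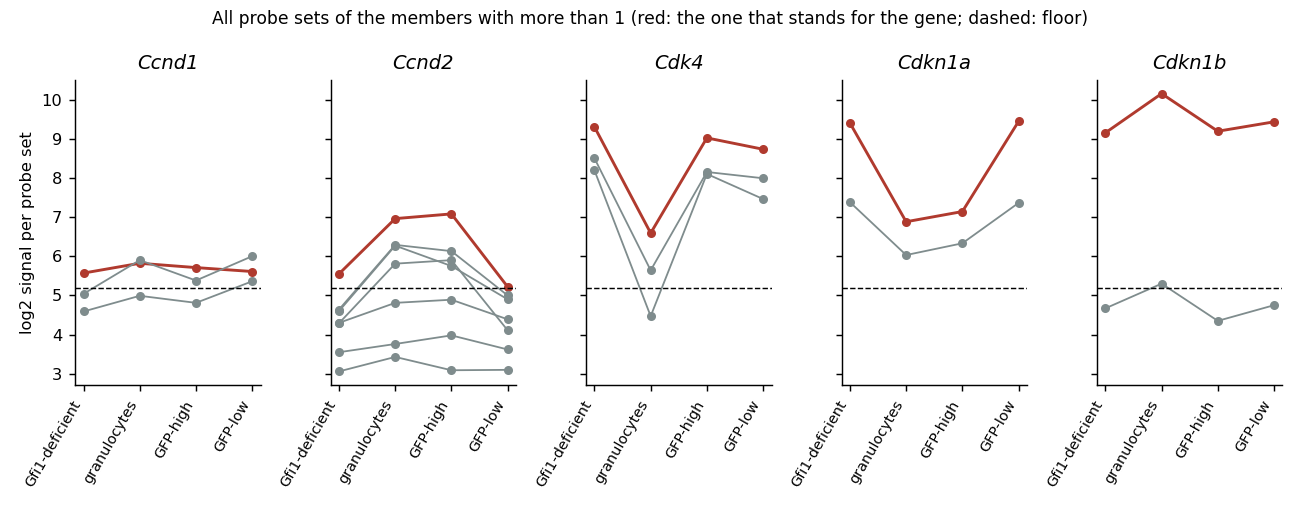
Log2 signal of every probe set (lines) on the 4 arrays for the 5 members with more than 1 probe set; red lines represent the gene, dashed lines the floor. The Cdk4 probe sets all dip in granulocytes, both Cdkn1a probe sets are higher on the monocyte arrays, and 3 of the 7 Ccnd2 probe sets stay below the floor.

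The INK4 inhibitors went different ways. Cdkn2c, which encodes p18, read 9.68 in Gfi1-deficient monocytes, 7.50 in granulocytes, 9.86 in GFP-high cells and 9.34 in GFP-low monocytes. It was low in granulocytes alone, as Cdk4 was, with a 5.13-fold lower level there than in GFP-high cells (log2 difference -2.36) and a 3.57-fold lower level than in GFP-low monocytes (-1.83). Cdkn2d, which encodes p19, read 10.38 in Gfi1-deficient monocytes, 11.07 in granulocytes, 10.68 in GFP-high cells and 9.87 in GFP-low monocytes. It was thus highest where Cdkn2c was lowest. It was 2.30-fold higher in granulocytes than in GFP-low monocytes (1.20) and 1.75-fold higher in GFP-high cells than in GFP-low monocytes (0.81). Each of its 3 steps between neighbouring arrays was larger than the probe set scatter, including 0.50 between Gfi1-deficient and GFP-low monocytes, above 95.6% of all genes.

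Cdkn2b, which encodes p15, was close to the floor on every array. It read 5.54 in Gfi1-deficient monocytes, 6.13 in granulocytes, 5.83 in GFP-high cells and 5.72 in GFP-low monocytes. Its range of 0.59 held no 2-fold difference, and Gfi1-deficient monocytes had its lowest value, 0.17 below GFP-low monocytes. The inhibitor genes Cdkn2a and Cdkn1c, which encode p16 with p19ARF and p57, were below the floor on all 4 arrays, with highest values of 4.02 and 4.48.

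Gfi1-deficient and GFP-low monocytes had no member at least 2-fold apart. These arrays differ in Gfi1 genotype, in the use of a GFP gate and, by Xist and Eif2s3y, in sex. Among 8010 genes, the share past 2-fold was 0.637% upwards and 1.27% downwards in Gfi1-deficient monocytes, so 0 of 9 measured members is near the background. The members' differences ran from -0.28 (Cdkn1b) to 0.57 (Cdk4), with a median of 0.06 against 0.03 over all genes. Camp, Ltf and Ngp, genes of secondary granules, had log2 differences of -5.04, -4.82 and -3.52 here, and all 5 primary granule and 3 eosinophil markers were at least 2-fold higher. The plasma cell genes Igha and Jchain were lower, at -3.27 and -1.69, as were 2 of 3 erythroid markers, Alas2 at -1.10 and Slc4a1 at -1.06. The third plasma cell marker, Xbp1, did not follow, at 0.14. These marker differences accompany the member values, and their part in them was not tested.

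Gfi1-deficient monocytes and GFP-high cells had 2 of 10 members at least 2-fold apart, with Cdkn1a higher and Ccnd2 lower. The background was 9.53% of 8195 genes higher and 7.81% lower, so 1 member each way is near it. The median over the members was -0.24, against -0.02 over all genes. All 5 monocyte markers were at least 2-fold higher and all 5 primary granule and 3 eosinophil markers at least 2-fold lower in Gfi1-deficient monocytes than in GFP-high cells. Their part in the Cdkn1a and Ccnd2 values was not tested.

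Granulocytes and GFP-low monocytes had the most members apart, 5 of 9 measured. Ccnd2 and Cdkn2d were at least 2-fold higher in granulocytes, where 10.0% of 8503 genes were, and Cdk4, Cdkn1a and Cdkn2c at least 2-fold lower, where 18.2% were. The median was 0.41 against 0.00 over all genes. Granulocytes and GFP-high cells had 2 of 10 members apart, Cdk4 and Cdkn2c, both lower in granulocytes, against a background of 8.93% of 8457 genes higher and 16.4% lower. The median there was -0.01, against 0.03 over all genes. All 4 mature neutrophil markers (Cxcr2, Il1b, Mmp9 and Il1r2) were at least 2-fold higher in granulocytes in each of these comparisons. All 5 monocyte markers were at least 2-fold lower in granulocytes than in GFP-low monocytes. All 5 primary granule and 3 eosinophil markers were at least 2-fold lower in granulocytes than in GFP-high cells. The part of these marker differences in the member values was not tested.

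GFP-high cells and GFP-low monocytes, of the same genotype and Gr1 gate, had 2 of 10 members apart, Ccnd2 higher and Cdkn1a lower in GFP-high cells. The background was 9.03% of 8232 genes higher and 9.61% lower. Cdkn1a stood in the low tail, with 2.70% of all genes lower, and Ccnd2 in the high tail, with 97.1% of all genes below it. The median was 0.41 against 0.03 over all genes. In GFP-high cells, all 5 monocyte markers lay at least 2-fold lower and all 5 primary granule, 3 eosinophil and 3 of 4 macrophage markers at least 2-fold higher, with a log2 summed signal of the macrophage markers of 11.24 against 10.32 in GFP-low monocytes. The fourth macrophage marker, Adgre1, was lower, at -2.42. Igha and Jchain were lower too, at -2.95 and -2.58, while the third plasma cell marker, Xbp1, was at -0.14. Nkg7 was higher, at 5.59. The part of these cells in the Ccnd2 and Cdkn1a values was not tested.

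**Figure D3:**
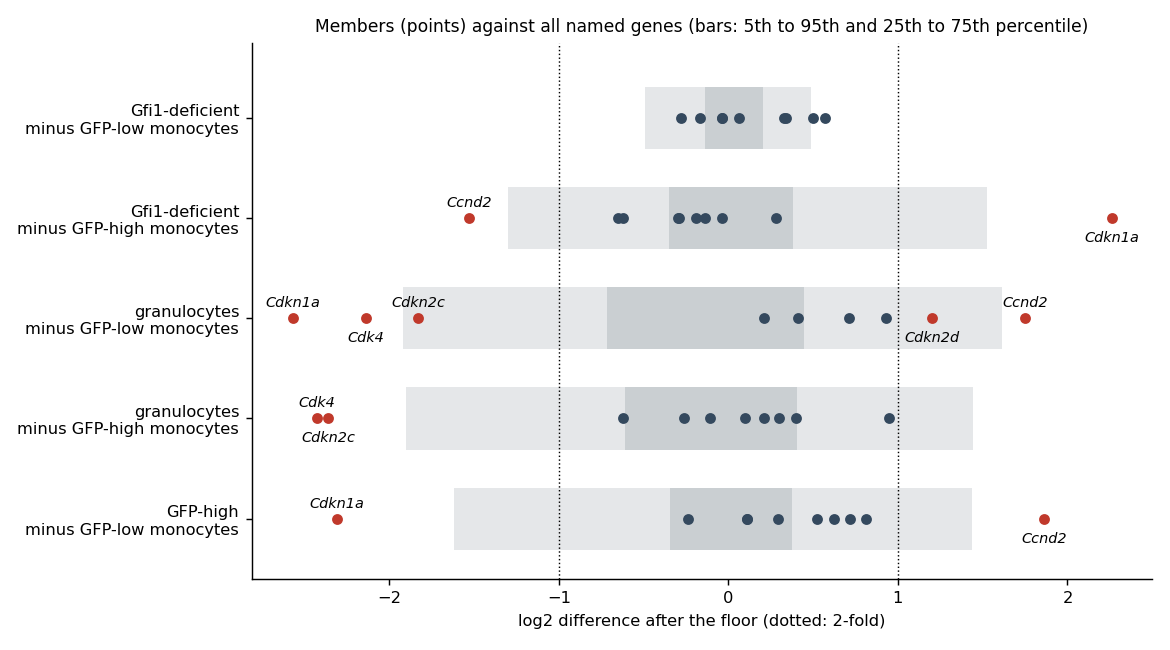
Log2 differences (horizontal axis) of the members in 5 comparisons (rows), over grey bars that span the 5th to 95th and 25th to 75th percentile of all named genes. Members at least 2-fold apart are red and named. Cdkn1a, Ccnd2 and Cdk4 each lie outside the wider bar in 3 comparisons, and no member reaches 2-fold in Gfi1-deficient minus GFP-low monocytes.

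The other genes of the pathway were read as lists. For their counts, the share of all genes at least 2-fold lower in granulocytes was 16.4% against GFP-high cells and 18.2% against GFP-low monocytes. In GFP-high cells minus GFP-low monocytes, 9.03% of all genes were at least 2-fold higher. E2F target genes encode replication and nucleotide synthesis proteins. In granulocytes, 14 of 15 measured were at least 2-fold below GFP-high cells, with a median log2 difference of -3.06. The helicase subunit gene Mcm5 was at -3.80 and the thymidine kinase gene Tk1 at -3.59. The smallest difference was that of the thymidylate synthase gene Tyms, at -0.86, a bound since it was below the floor in granulocytes. Against GFP-low monocytes, 13 of 14 were at least 2-fold lower in granulocytes (median -1.76). Cdk4 and Cdkn2c were thus low on the same array as these genes. In GFP-high cells minus GFP-low monocytes, 11 of 15 E2F targets were at least 2-fold higher (median 1.33), with the helicase loader gene Cdc6 at 2.54 and Rrm2, a ribonucleotide reductase subunit, at 1.93. Cdk4, at 0.29, and Cdkn2c, at 0.52, did not reach 2-fold there. In Gfi1-deficient minus GFP-low monocytes 0 of 14 reached 2-fold, and the median was 0.39, with Cdc6 at 0.82 and Mki67, a proliferation marker, at -0.23.

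Most cyclin and kinase genes that act after cyclin D were also lower in granulocytes than in GFP-high cells. Among 8 measured genes of cyclins E and A and their kinases, 6 lay at least 2-fold lower in granulocytes than in GFP-high cells (median -1.96), with the cyclin E gene Ccne2 at -3.73, a bound since it was below the floor in granulocytes, and the phosphatase gene Cdc25a at -2.70. In GFP-high cells minus GFP-low monocytes 5 of 8 were at least 2-fold higher, Cdc25a at 3.11 and Ccne2 at 2.40, and 0 were lower. Of 7 mitotic cyclin and kinase genes, 6 passed 2-fold downwards in granulocytes minus GFP-high cells, among them the mitotic kinase gene Cdk1 at -2.88. In Gfi1-deficient minus GFP-low monocytes 0 of 7 reached 2-fold, with a median of 0.44 and the kinase gene Aurka at 0.69.

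Among 10 genes of the retinoblastoma and E2F families, 4 passed 2-fold downwards in granulocytes minus GFP-high cells, where 16.4% of all genes did. Rbl1, which encodes the retinoblastoma relative p107, was at -2.81, E2f8 at -2.62 and E2f6, below the floor in granulocytes, at -2.12, while Rbl2 and E2f3 were at 0.49 and 0.38. Tfdp1, which encodes the DNA-binding partner of E2F, read 9.28 in Gfi1-deficient monocytes, 10.56 in granulocytes, 11.44 in GFP-high cells and 8.99 in GFP-low monocytes. Its higher pair of arrays was that of Ccnd2. Of 12 genes for the turnover of inhibitors and cyclins, 5 passed 2-fold downwards in granulocytes minus GFP-high cells, against the same 16.4%. Skp2, which marks p27 for degradation, read 7.26 in Gfi1-deficient monocytes, 4.69 in granulocytes, 8.27 in GFP-high cells and 7.03 in GFP-low monocytes, and Dtl, a substrate receptor for p21 degradation, was at -3.22 in the same comparison, with Cks1b, a cofactor of Skp2, at -2.53. Skp2 was thus below the floor on the array with the highest Cdkn1b value. That value is of RNA, whereas Skp2 acts on the p27 protein, which was not measured. A link between the 2 genes was not tested.

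The MYC network held the largest single difference of these pathway lists in granulocytes minus GFP-low monocytes. Mxd1, an antagonist of MYC at E-boxes, read 5.86 in Gfi1-deficient monocytes, 10.56 in granulocytes, 7.85 in GFP-high cells and 5.61 in GFP-low monocytes, a log2 difference of 4.95 for granulocytes minus GFP-low monocytes. Myc itself read 6.11 in Gfi1-deficient monocytes, 4.91 in granulocytes (below the floor), 7.04 in GFP-high cells and 5.71 in GFP-low monocytes. Granulocytes had the highest Mxd1 and the lowest Myc value, and the lowest value of Cdk4. The part of Mxd1 and Myc in the Cdk4 values was not tested. In GFP-high cells minus GFP-low monocytes, 3 of 10 measured genes of the network were at least 2-fold higher, against 9.03% of all genes. They were Mxd1 at 2.25, Mxi1, also a MYC antagonist gene, at 1.55, and Myc at 1.33. There 1 was lower, Mnt at -1.03, against 9.61% of all genes, and Cdk4 was at 0.29.

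Genes known to act on or with the inhibitors were read in the same way. Of 14 measured genes of the p53 pathway, 1 was at least 2-fold higher in GFP-high cells than in GFP-low monocytes, Gadd45a at 1.68, and 2 were lower, Pmaip1 at -3.56 (a bound) and Bbc3 at -1.41. These counts are near the background of 9.03% and 9.61%, and the list median was -0.16. In granulocytes minus GFP-low monocytes 5 of 13 were at least 2-fold higher, against 10.0% of all genes. The stress response gene Gadd45a was at 3.47 and Trp53inp1 at 2.52, and Pmaip1 was lower at -1.80. Of 13 genes of the TGF-beta, FoxO and related regulators of inhibitors, 3 passed 2-fold downwards in GFP-high cells minus GFP-low monocytes and 0 upwards. The background there was 9.61% downwards and 9.03% upwards. Klf4, a transcription factor that can activate Cdkn1a, was among the 3. It read 11.36 in Gfi1-deficient monocytes, 7.28 in granulocytes, 6.70 in GFP-high cells and 11.38 in GFP-low monocytes, so its higher and lower pairs of arrays were those of Cdkn1a. All 5 monocyte markers were also higher on the monocyte arrays than on the others. The part of Klf4 in the Cdkn1a values was not tested. Zbtb17, the gene of Miz1, read between 6.94 and 7.20 on the 4 arrays.

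BTG and TOB genes, which encode antiproliferative proteins, gave 4 measured members. In granulocytes minus GFP-high cells 3 of them passed 2-fold upwards, Btg2 at 2.21, Btg1 at 1.66 and Tob1 at 1.54, against 8.93% of all genes. Tob1 read 7.75 in Gfi1-deficient monocytes, 10.61 in granulocytes, 9.07 in GFP-high cells and 7.85 in GFP-low monocytes. Its highest array was that of Cdkn1b and Cdkn2d.

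**Figure D4:**
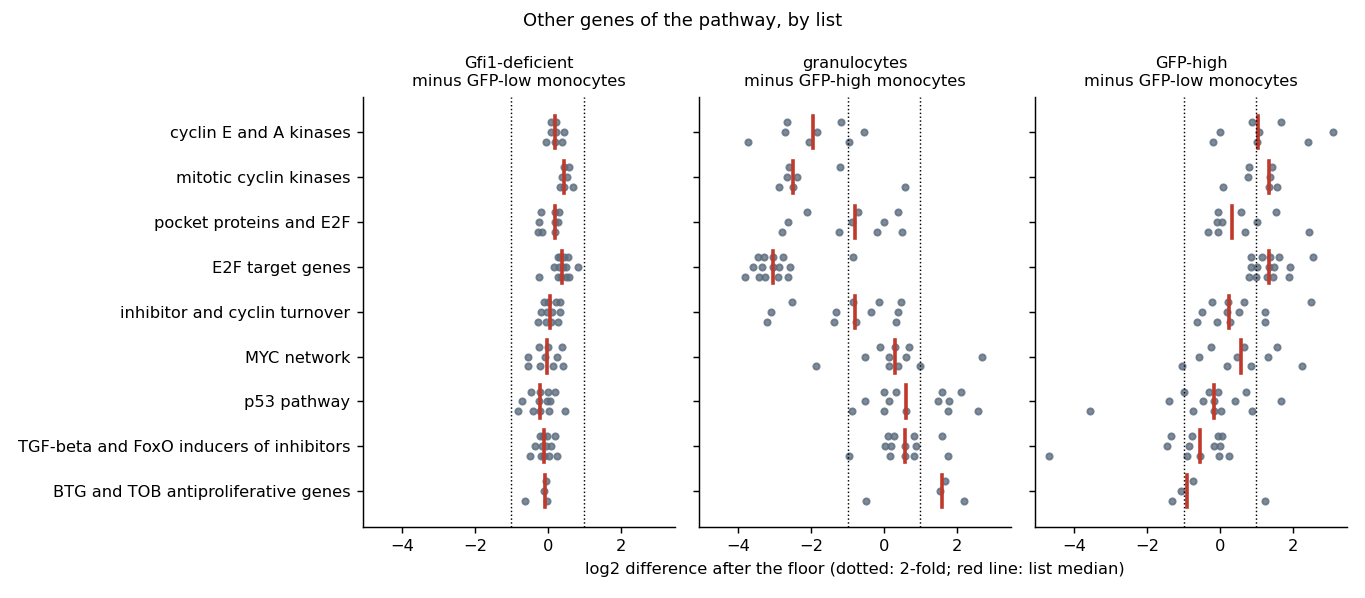
Log2 differences (horizontal axis) of single genes (points) and list medians (red lines) for the pathway lists (rows) in 3 comparisons (panels). Most E2F target and mitotic genes lie to the left in granulocytes minus GFP-high cells and to the right in GFP-high cells minus GFP-low monocytes, and all points stay within 2-fold in Gfi1-deficient minus GFP-low monocytes.

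For the 5 members with a range of at least 1 over the arrays (that of Cdkn1b fell just short before rounding), the genes with the nearest profile were found among 3688 others by the root mean square difference of centred log2 values over 4 arrays. Nearest to Cdkn1a were Nrip1, a corepressor gene (0.06), and Sumf1, which encodes a sulfatase-activating enzyme (0.09). Nearest to Cdkn2c were A430005L14Rik (0.04) and the tubulin gene Tubb5 (0.05), and nearest to Cdk4 were the tRNA synthetase gene Farsa (0.08) and the protein folding gene Fkbp2 (0.08). Nearest to Ccnd2 were Dennd11 and the parvin gene Parvg (0.08 each), and nearest to Cdkn2d were Gde1 and the peroxisomal protease gene Lonp2 (0.05 each). With 4 values in a profile, such closeness is a description of these arrays.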

How the data were processed

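RNA of 4 sorted bone marrow populations was hybridised to 1 Affymetrix array each. Per the labels' protocols, TRIzol was used for extraction, and biotin-labelled cRNA was made from 6 µg of RNA. The values deposited by the authors were read as log2 signals, 1 for each of 22690 probe sets and array, from their range of 2.70 to 14.50. For the log base and for how probe signals were corrected, summarised and normalized, the method is not given in the sources used here. No further scaling was applied. Arrays have no read depth, and their number limits the precision.

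Probe sets with exactly 1 gene (20393; 691 had several and 1606 none) were named from the platform annotation, and 20364 of them matched the gene table of GRCm38.p6 by gene identifier. Control probe sets were kept out of gene calls. Where a gene had several probe sets, the one of highest mean stood for it. Values of genes below the 40th percentile (5.18) were set to it before differences were taken. A difference in which 1 array lay at the floor is a bound, and none is given where both were. Differences of single probe sets of a gene, where given beside the representative, were taken without the floor. Calls were log2 differences of at least 1, and all percentages of called genes are over genes above the floor on at least 1 of the arrays compared. Scatter was taken from the 2 brightest probe sets of a gene, as the SD over genes of how far their log2 differences lay apart, divided by the square root of 2, for genes with at least 2 probe sets above the floor on all arrays. The code for calls and scatter was tested on simulated data.

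All 10 members are described. From the 11 pathway lists the rule was to name the 2 highest and 2 lowest genes of the comparison described and any at least 4-fold apart. Not every gene that met it is printed, and the choice among them, like the few named outside it, was made after their values were seen. Pathway and marker lists (13 of the latter) were written by hand, and the members and lists were chosen with earlier results of these data known. Some lists are small, and each list is given by counts and median only. The calculations used Python 3.11.15, numpy 2.4.6 and pandas 2.3.3. Alternatives were 3 other floors, 2 normalizations, 4 ways to treat several probe sets and a 1.5-fold rule.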

Additional observations from a re-analysis of the deposited data

How the results depend on the processing

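Counts of members at least 2-fold apart were recomputed under 10 other settings in 5 comparisons, and 43 of these 50 counts stayed within 1.5 times the original. With the floor at the 60th percentile, and likewise with the mean of all probe sets of a gene, the count was 1 in place of 2 for Gfi1-deficient monocytes minus GFP-high cells and 1 in place of 2 for GFP-high cells minus GFP-low monocytes, since Ccnd2 dropped out and Cdkn1a stayed. The Ccnd2 differences under these settings are bounds, since 1 array of each pair lay under the floor. With 1.5-fold in place of 2-fold the count was 4 for Gfi1-deficient monocytes minus GFP-high cells, 4 for granulocytes minus GFP-high cells and 5 for GFP-high cells minus GFP-low monocytes. A mean over the probe sets above the floor on at least 1 array, chosen after seeing the data, kept Ccnd2 apart. Its log2 difference was at least 1.04 for GFP-high cells minus GFP-low monocytes. Besides the representative, the Ccnd2 probe sets in this mean passed only through granulocytes and GFP-high cells, where Ccnd2 was high. This setting therefore gives no separate support. Of 416 differences of single members, 384 moved by less than the probe set scatter, 32 moved by more and 0 called differences changed sign. Quantile normalization and median shifting moved none of them beyond that scatter, but both took Ccnd3 past 2-fold in granulocytes minus GFP-low monocytes (6 members in place of 5), and median shifting took Cdkn1b past it in granulocytes minus GFP-high cells (3 in place of 2). No paired analysis was possible because each population had 1 array, and no array could be left out for the same reason. Low signal limits Ccnd1, Ccnd2, Cdk6 and Cdkn2b, which read near or below the floor.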

Other observations

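Of the Gfi1 corepressor genes, the histone deacetylase gene Hdac2 read 7.16 in Gfi1-deficient monocytes, 5.14 in granulocytes (below the floor), 7.56 in GFP-high cells and 6.84 in GFP-low monocytes. It was low on the array on which Cdk4 and Cdkn2c were low. Hdac1, Kdm1a and Rcor1, which encode further corepressor subunits, differed by less than 2-fold in the 5 comparisons.

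The receptor gene Kit, which marks early progenitors, read 4.42 in Gfi1-deficient monocytes (below the floor), 6.51 in granulocytes, 8.11 in GFP-high cells and 3.96 in GFP-low monocytes (below the floor). GFP-high cells, with the highest Kit value, were also the array on which Cdk6 was above the floor. The other stem and progenitor markers examined did not follow Kit. Cd34 and Meis1 were above the floor in Gfi1-deficient monocytes only, at 5.31 and 5.79. Flt3 was lowest in GFP-high cells, at 7.5, against 7.81 to 8.03 on the other arrays.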
